A study of Homo sapiens with 6 samples.

Results

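The genes described here are 33 interferon-stimulated genes and factors, listed by symbol among the 61552 genes of the deposited tables. All 33 were matched by symbol. This list and the further lists below were chosen with earlier results of these data known. Their shares of calls therefore describe the lists, and the differences from all tested genes were not tested. The RNA came from NCI-H520, a human cell line established from a squamous carcinoma of the lung, labelled WT and kept in medium with 15% fetal bovine serum. One group of 3 libraries came from cells given 2 µM cisplatin for 48 h (a platinum compound that forms crosslinks in DNA), and the other group of 3 from cells given phosphate-buffered saline (PBS) for 48 h. No gene was edited and no interferon was given to either group, as far as the labels say, and all 6 libraries come from a single cell line. Nothing in the labels ties the replicates to separate cultures; a p-value here therefore reflects the spread of these 6 libraries alone, which may be technical.

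Type I and type III interferons bind receptors on the cell surface and activate the kinases JAK1 and TYK2, which phosphorylate STAT proteins, STAT2 among them. With IRF9, STAT2 is part of a complex that binds the interferon-stimulated response element in promoters. The genes it switches on include sensors of viral RNA, enzymes that break down or block RNA, membrane proteins that stop virus entry, and chemokines. In tumour cells a part of the same genes can be expressed without added interferon, and DNA damage is one of the settings in which this is studied.

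Of the 33 genes, 22 had enough counts to be tested, and 15 of these rose under cisplatin, 2 fell and 5 were not called. The genes that rose took in all 3 IFIT genes, all 4 tested IFI genes, OAS1, ISG15, MX1, SAMD9, PARP9, STAT2, IRF1 and IRF7, by 1.35-fold (STAT2) to 3.67-fold (OAS1). CMPK2 and IFIH1 fell. The other 11 genes had at most 16 counts in any library, and 4 of them, IFI44L, CXCL10, CXCL11 and XAF1, had 0 counts in all 6. Over all 15063 tested genes, the quasi-likelihood test of edgeR, adjusted by Benjamini-Hochberg, called 18.9% higher and 19.3% lower at an adjusted p of 0.05, against 68.2% and 9.09% of the 22 tested interferon-stimulated genes. IFIT2 and IFI44 cleared the count minimum only through the cisplatin libraries, so their calls are not independent of that minimum. Among the 20 genes that cleared it in both groups, 13 rose and 2 fell. In bulk RNA, more cells with a transcript and more RNA per cell cannot be told apart.

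**Figure D1:**
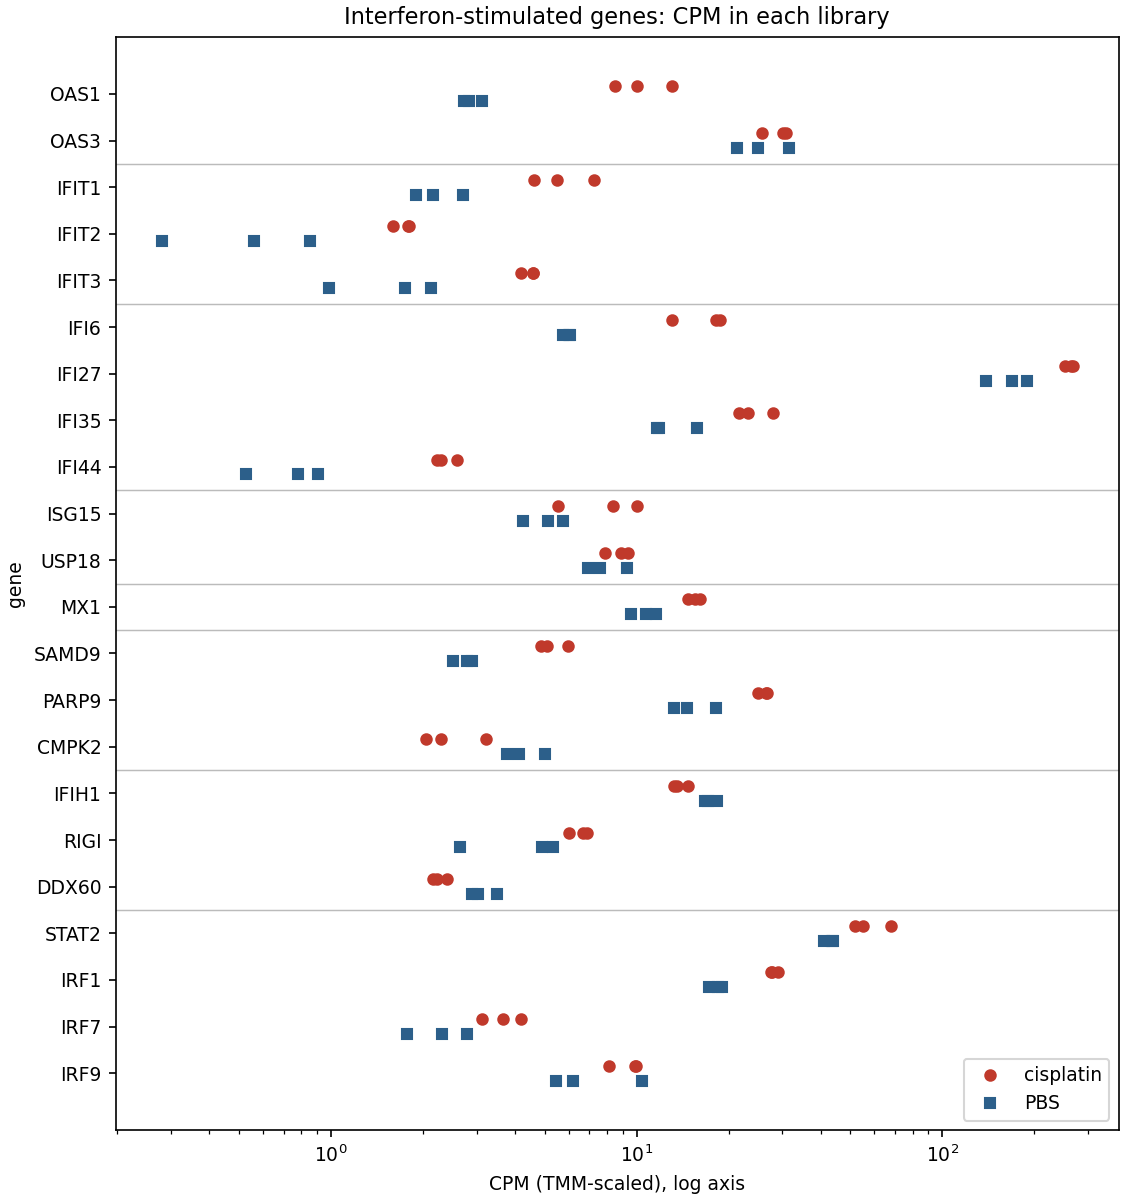
CPM (counts scaled to library size, with TMM factors) of the 22 tested genes in each of the 3 cisplatin libraries (red circles) and the 3 PBS libraries (blue squares), on a log axis, with lines between functional groups. The cisplatin libraries lie above all PBS libraries for 15 genes and below them for 3.

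Promoter sequences were read to see what the genes share beyond the list. RefSeq gives windows of 300 bases, 250 before and 50 after an annotated start (GRCh38.p14), for 26 of the 33 genes, 35 windows in all since some genes have several starts. The interferon-stimulated response element was searched on both strands as GAAA-NN-GAAA, and a form with a shorter spacer as GAAA-N-GAAA; the 2 forms can overlap. The windows of 4 genes that rose (OAS1, IFI6, IFIT1 and ISG15), 1 that fell (IFIH1) and 2 with no counts (IFI44L and CXCL10) are printed to show that the motif occurs in each of these classes. They lie at chr12:112906712-112907011 (plus strand), chr1:27672143-27672442 (minus), chr10:89392373-89392672 (plus), chr1:1013247-1013546 (plus), chr2:162318635-162318934 (minus), chr1:78620198-78620497 (plus) and chr4:76023448-76023747 (minus), each written 5′ to 3′ on the strand of its gene, with motif matches in capitals.
OAS1: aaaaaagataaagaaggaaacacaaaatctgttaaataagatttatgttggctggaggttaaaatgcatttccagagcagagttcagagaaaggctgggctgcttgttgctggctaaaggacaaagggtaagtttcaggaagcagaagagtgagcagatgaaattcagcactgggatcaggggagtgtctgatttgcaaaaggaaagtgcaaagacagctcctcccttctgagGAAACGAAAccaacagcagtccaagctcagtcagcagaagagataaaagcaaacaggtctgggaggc
IFI6: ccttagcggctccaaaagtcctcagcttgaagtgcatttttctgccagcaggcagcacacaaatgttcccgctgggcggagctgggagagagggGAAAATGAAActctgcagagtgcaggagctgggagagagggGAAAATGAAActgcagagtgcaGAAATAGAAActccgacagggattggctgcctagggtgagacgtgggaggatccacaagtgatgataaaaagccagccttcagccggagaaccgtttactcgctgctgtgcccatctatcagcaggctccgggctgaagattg
IFIT1: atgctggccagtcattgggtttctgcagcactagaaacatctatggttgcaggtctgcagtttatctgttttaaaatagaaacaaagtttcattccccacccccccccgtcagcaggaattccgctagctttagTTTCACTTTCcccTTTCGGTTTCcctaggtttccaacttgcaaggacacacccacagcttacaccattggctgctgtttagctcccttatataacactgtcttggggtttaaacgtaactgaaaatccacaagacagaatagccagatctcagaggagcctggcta
ISG15: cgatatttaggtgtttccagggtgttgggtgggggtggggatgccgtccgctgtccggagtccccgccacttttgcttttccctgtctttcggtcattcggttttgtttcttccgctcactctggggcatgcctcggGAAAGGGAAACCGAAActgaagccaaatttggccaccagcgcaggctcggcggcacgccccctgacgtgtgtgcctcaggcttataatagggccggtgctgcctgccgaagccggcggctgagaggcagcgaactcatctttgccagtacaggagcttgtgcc
IFIH1: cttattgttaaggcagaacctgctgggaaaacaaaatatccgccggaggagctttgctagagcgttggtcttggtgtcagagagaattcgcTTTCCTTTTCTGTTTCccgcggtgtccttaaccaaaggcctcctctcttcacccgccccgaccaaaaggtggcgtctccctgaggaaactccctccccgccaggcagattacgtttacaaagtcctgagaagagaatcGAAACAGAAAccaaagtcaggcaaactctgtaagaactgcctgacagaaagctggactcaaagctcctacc
IFI44L: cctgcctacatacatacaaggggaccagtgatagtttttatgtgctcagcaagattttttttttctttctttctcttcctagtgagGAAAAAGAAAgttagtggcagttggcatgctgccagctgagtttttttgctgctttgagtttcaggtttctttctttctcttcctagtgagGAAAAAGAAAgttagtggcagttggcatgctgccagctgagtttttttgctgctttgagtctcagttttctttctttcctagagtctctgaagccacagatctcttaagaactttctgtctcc
CXCL10: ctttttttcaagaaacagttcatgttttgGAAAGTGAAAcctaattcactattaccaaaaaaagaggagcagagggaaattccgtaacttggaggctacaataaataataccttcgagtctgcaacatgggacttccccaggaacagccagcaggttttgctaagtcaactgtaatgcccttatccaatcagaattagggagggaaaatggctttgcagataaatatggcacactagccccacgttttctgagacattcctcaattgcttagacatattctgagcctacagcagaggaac
GAAA-NN-GAAA occurred in 21 of the 35 windows (60.0%), against 3.57% of the 35116 promoter windows of the same length. With the shorter spacer included, 28 windows (80.0%) had a match, against 6.40% of all windows. By gene, a match of either spacing was found for 11 of the 13 genes with a window that rose, for both genes that fell, for 3 of the 4 that were not called and for all 7 that were too low to test. OAS1 held only the short form, 17 bases before its start, and STAT2, IRF1 and IRF9 had neither. The motif is part of how such genes are known, so these shares describe the list, and they were not tested. TTCNNNGAA, a motif of STAT dimers, occurred in 11 of the 35 windows (31.4%), against 7.66% of all windows; the IRF1 window had 1.

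Oligoadenylate synthetases make a short chain of linked adenylates on sensing foreign RNA, which activates the nuclease RNase L. OAS1 (chromosome 12, 112906777 to 112933222, plus strand, GRCh38) had 8.47, 13.1 and 10.03 CPM in the cisplatin libraries, against 3.13, 2.83 and 2.72 CPM in the PBS libraries. Every cisplatin library was well above the highest PBS library, and the groups did not overlap. The log2 fold change was 1.87 ± 0.19 (SE), or 3.67-fold with a 95% interval of 2.75 to 4.89 (edgeR adjusted p = 3.2e-05). OAS1 kept its call under all 16 alternatives tried, with log2 fold changes from 1.40 to 2.00.

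OAS3, which starts 5129 bases downstream of OAS1 on the same strand, had 30.8, 30.2 and 25.7 CPM under cisplatin and 25.01, 21.4 and 31.5 CPM under PBS. The groups overlapped, and OAS3 was not called (log2 fold change 0.15 ± 0.14, 95% interval of the fold 0.904 to 1.36, edgeR adjusted p = 0.416). After a correction for transcript length it passed (0.40, edgeR adjusted p = 0.0274). The log2 ratio of OAS1 to OAS3 was -1.86, -1.21 and -1.36 in the cisplatin libraries and -3.0, -2.92 and -3.53 in the PBS libraries, a difference of 1.68 (exact permutation test, two-sided, p = 0.1, the smallest that 3 against 3 libraries can give; 1 of 3 ratios chosen after the values were seen, adjusted p = 0.1). OAS2, the next gene downstream, had 3, 2 and 5 counts under cisplatin and 0, 1 and 1 under PBS. OASL, a catalytically inactive relative that assists RIG-I, had 1, 3 and 4 counts under cisplatin and 1, 0 and 4 under PBS. Neither cleared the count minimum, and OASL overlapped between the groups.

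The IFIT proteins bind RNA that lacks the host's cap marks and keep it from being translated. Their genes lie in one cluster on chromosome 10, IFIT2 at 89283694 to 89309276, IFIT3 at 89327894 to 89340971 and IFIT1 at 89392546 to 89406486, all on the plus strand. IFIT1 had 5.48, 4.63 and 7.27 CPM under cisplatin, against 1.90, 2.696 and 2.16 CPM under PBS. IFIT3 had 4.58, 4.19 and 4.57 CPM under cisplatin, against 2.12, 0.987 and 1.74 CPM under PBS. The 2 groups did not overlap for either gene. The log2 fold changes were 1.36 ± 0.22 for IFIT1 (edgeR adjusted p = 7.1e-04) and 1.51 ± 0.26 for IFIT3 (edgeR adjusted p = 7.7e-04).

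IFIT2 had 16, 20 and 30 counts in the cisplatin libraries and 5, 13 and 4 in the PBS libraries, or 1.59, 1.78 and 1.80 CPM against 0.558, 0.855 and 0.279 CPM. It cleared the count minimum only through the cisplatin libraries, so its call is not independent of that minimum. Its log2 fold change of 1.59 ± 0.37 (edgeR adjusted p = 0.00557) carried the widest interval of the 3, from 1.72-fold to 5.28-fold, and ran from 1.22 without PBS replicate 3 to 2.13 without PBS replicate 2. Expressed per transcript length, the 3 genes together stood at 4.24, 3.70 and 4.76 TPM under cisplatin and 1.78, 1.48 and 1.79 TPM under PBS. The IFIT transcripts were thus of low abundance in both groups and higher in every cisplatin library.

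The genes named IFI encode proteins of differing function. IFI27 is a protein of the mitochondrial and nuclear membranes and was the most abundant of the 33, at rank 187 of all genes by mean TPM. It had 876, 870 and 875 TPM under cisplatin and 568, 520 and 496 TPM under PBS. In CPM it averaged 262 ± 8.11 under cisplatin and 166 ± 25.1 under PBS (SD, n = 3 each), with no overlap between the groups. The log2 fold change of 0.66 ± 0.10 (edgeR adjusted p = 3.5e-04) dropped to 0.39 after the length correction and was still called (edgeR adjusted p = 8.6e-04).

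IFI6, a small membrane protein that limits apoptosis and the replication of some viruses, lies on chromosome 1 at 27666061 to 27672218 (minus strand). It had 18.2, 13.0 and 18.7 CPM under cisplatin, against 6.03, 5.72 and 5.996 CPM under PBS. The PBS libraries were close to each other and all cisplatin libraries lay far above them; the log2 fold change was 1.50 ± 0.16 (edgeR adjusted p = 3.8e-05). IFI35, a partner of the protein NMI, averaged 24.2 ± 3.26 CPM under cisplatin and 13.1 ± 2.31 CPM under PBS (SD, n = 3 each), and rose by 0.91 ± 0.14 (edgeR adjusted p = 4.4e-04).

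IFI44 had 26, 25 and 38 counts under cisplatin and 7, 8 and 13 under PBS, which is a log2 difference of 1.68 ± 0.30 (edgeR adjusted p = 0.00107). IFI44 cleared the count minimum only through the cisplatin libraries, so this call is not independent of that minimum. Its neighbour IFI44L, 3650 bases upstream, had 0 counts in all 6 libraries. A count of 0 is under the floor of 3 counts, which corresponds to 0.180 to 0.298 CPM in the cisplatin libraries and 0.197 to 0.334 CPM in the PBS libraries, so IFI44L was not detectable at this depth in either group. These floors cover counting error only.

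**Figure D2:**
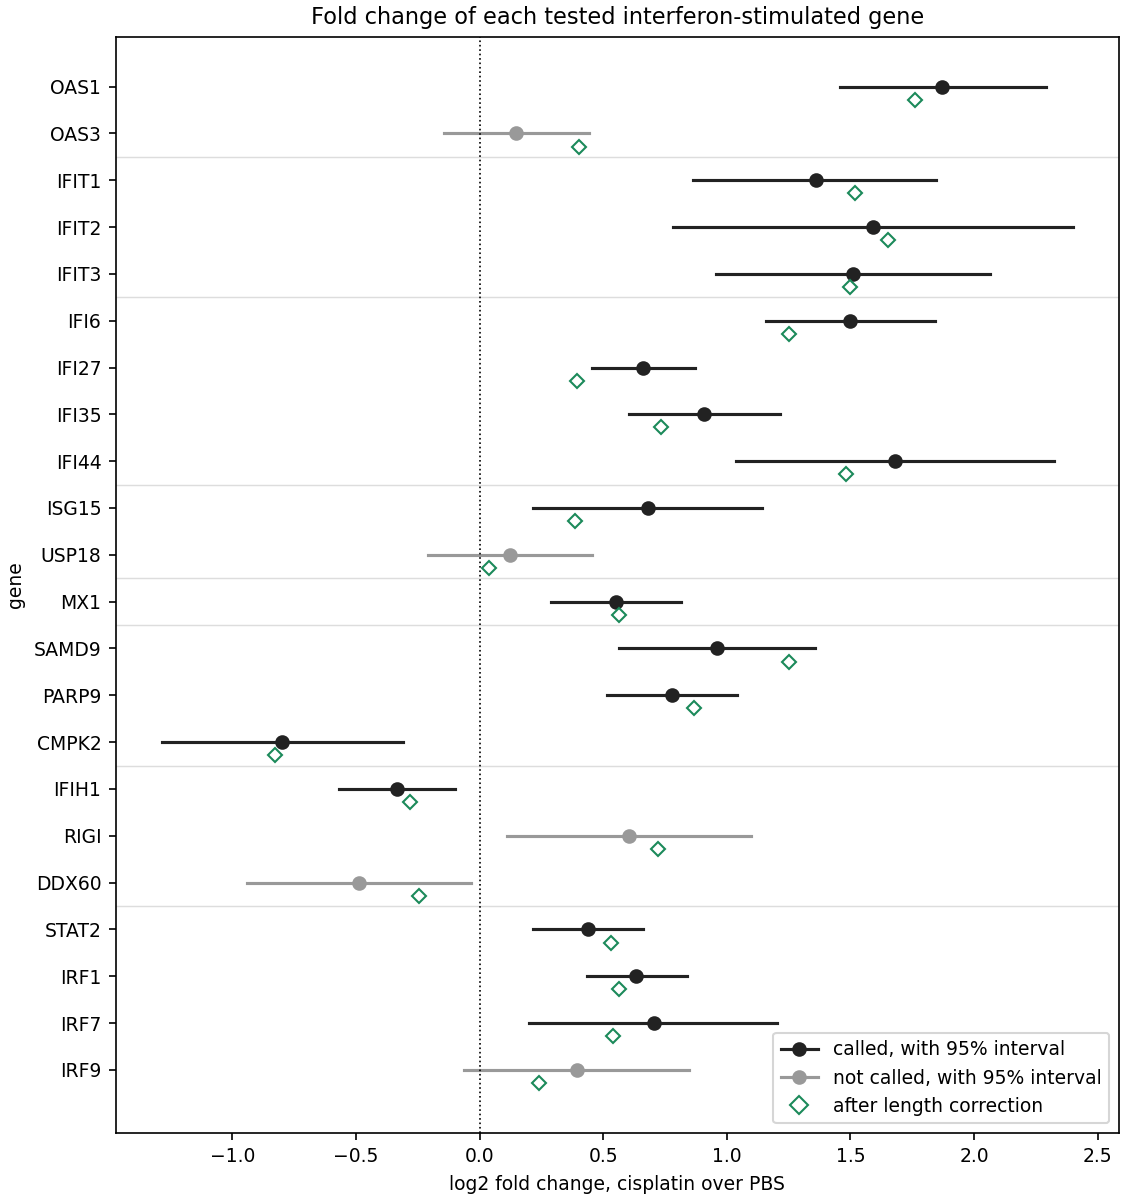
Log2 fold change, cisplatin over PBS, of the 22 tested genes with its 95% interval (black where called, grey where not), and the value after a correction for transcript length (green diamonds). OAS1, the 3 IFIT genes, IFI6 and IFI44 lie above 1, and CMPK2, IFIH1 and the uncalled DDX60 lie below 0. IFIT2 and IFI44 passed the count minimum only through the cisplatin libraries.

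ISG15 is a ubiquitin-like protein that is attached to other proteins, and USP18 removes it and also damps the interferon receptor. ISG15 (chromosome 1, 1001138 to 1014540, plus strand) had 8.37, 5.52 and 10.03 CPM under cisplatin and 5.14, 5.72 and 4.25 CPM under PBS. It was the one called gene whose groups overlapped in CPM, through cisplatin replicate 2. Its log2 fold change was 0.68 ± 0.21 (edgeR adjusted p = 0.0245). The call was lost without cisplatin replicate 1 (edgeR adjusted p = 0.0665), cisplatin replicate 3 (0.142), PBS replicate 1 (0.0561) or PBS replicate 3 (0.0932), and after the length correction (0.39, adjusted p = 0.134). USP18 had 8.87, 9.35 and 7.87 CPM under cisplatin and 7.59, 6.91 and 9.27 CPM under PBS. Its groups overlapped as well, and the log2 fold change was 0.12 ± 0.15, a fold interval of 0.865 to 1.37 and an edgeR adjusted p of 0.553.

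MX1, a GTPase that traps viral nucleocapsids, had 14.7, 15.5 and 16.2 CPM under cisplatin and 11.6, 9.60 and 10.7 CPM under PBS. All cisplatin libraries were higher, and it rose by 0.55 ± 0.12 (edgeR adjusted p = 0.00365). Its relative MX2, 10913 bases upstream on chromosome 21, had 5, 2 and 2 counts under cisplatin and 0, 2 and 0 under PBS and was not tested.

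The IFITM proteins change membranes so that enveloped viruses cannot fuse with them, and they are abundant in many epithelial cells. Here IFITM1 had 3, 1 and 0 counts in the cisplatin libraries and 0 in all 3 PBS libraries. IFITM2 had 6, 13 and 16 counts under cisplatin and 1, 0 and 5 under PBS. IFITM3 had 4, 7 and 7 counts under cisplatin and 0, 2 and 0 under PBS. None of the 3 cleared the count minimum, while with no minimum edgeR called IFITM2 (adjusted p = 9.4e-04) and IFITM3 (adjusted p = 0.0118) higher and not IFITM1 (adjusted p = 0.210). These genes are related in sequence. Separately, the annotated IFITM2 runs across IFITM1 and covers 32.5% of its exonic bases. Reads can therefore be divided among the IFITM genes, and single values are uncertain.

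PARP9 binds the ubiquitin ligase DTX3L and acts in both DNA repair and interferon signalling. It had 25.01, 26.6 and 26.4 CPM under cisplatin, against 18.2, 14.6 and 13.2 CPM under PBS. The groups were well apart, and PARP9 rose by 0.78 ± 0.12 (edgeR adjusted p = 4.4e-04), which was kept under all 16 alternatives. DTX3L, transcribed from the other strand at the same locus, averaged 18.2 ± 1.72 CPM under cisplatin and 17.7 ± 0.977 CPM under PBS (log2 fold change 0.04 ± 0.11, edgeR adjusted p = 0.790). The log2 ratio of PARP9 to DTX3L was 0.43, 0.71 and 0.43 under cisplatin and 0.09, -0.37 and -0.37 under PBS (exact permutation test, two-sided, p = 0.1, the smallest possible; adjusted p = 0.1 over the 3 ratios). This ratio too was chosen after the values were seen, so its p-value lends no support.

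SAMD9, a factor that restricts poxviruses and whose mRNA was the longest of the tested genes at 6717 bases on average, had 4.88, 5.97 and 5.11 CPM under cisplatin and 2.79, 2.89 and 2.51 CPM under PBS. It rose by 0.96 ± 0.18 (edgeR adjusted p = 0.00172); the length-corrected value was 1.25. BST2 (tetherin, which holds budding virions at the cell surface) had 3, 1 and 3 counts under cisplatin and 0, 1 and 0 under PBS. XAF1, an antagonist of the apoptosis inhibitor XIAP, had 0 in all 6 libraries; 38.3% of its exonic bases lie under PRAL on the opposite strand. The chemokine genes CXCL10 and CXCL11, whose proteins attract T cells through CXCR3, were also at 0 counts throughout.

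CMPK2, a mitochondrial nucleotide kinase, went against most of the list. It had 2.29, 3.21 and 2.04 CPM under cisplatin, against 4.13, 4.998 and 3.77 CPM under PBS, with no overlap. The log2 fold change was -0.80 ± 0.23 (edgeR adjusted p = 0.0149). The call was lost without cisplatin replicate 1 (edgeR adjusted p = 0.0529), cisplatin replicate 3 (0.0772) or PBS replicate 2 (0.0664). In TPM the groups overlapped, and limma on log2(TPM + 1) did not call CMPK2 (adjusted p = 0.0868). RSAD2, the antiviral enzyme viperin encoded beside it on the opposite strand, had 7.28, 14 and 15 expected counts under cisplatin and 5, 7 and 19 under PBS (edgeR adjusted p = 0.691).

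Of the 3 tested RNA sensors, 1 fell and 2 were not called. IFIH1 (MDA5), which recognises long RNA duplexes, had 14.7, 13.3 and 13.5 CPM under cisplatin and 16.7, 17.1 and 18.3 CPM under PBS. All cisplatin libraries were lower, and the log2 fold change was -0.33 ± 0.11 (edgeR adjusted p = 0.0282). That call was lost without cisplatin replicate 2 (edgeR adjusted p = 0.0971), cisplatin replicate 3 (0.0850) or PBS replicate 3 (0.0848), after the length correction (0.0509) and with DESeq2 (0.0830). DDX60, a helicase that assists the sensors, had 2.39, 2.23 and 2.16 CPM under cisplatin and 2.90, 3.03 and 3.49 CPM under PBS, which did not overlap, and was not called (-0.49 ± 0.21, edgeR adjusted p = 0.0841).

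RIGI (RIG-I), which recognises RNA with a triphosphate end, had 6.68, 6.86 and 6.01 CPM under cisplatin and 4.91, 5.33 and 2.65 CPM under PBS. The groups did not overlap, PBS replicate 3 was the lowest library, and the gene fell just short of a call (log2 fold change 0.61 ± 0.23, edgeR adjusted p = 0.0508). RIGI passed under 8 of the 16 alternatives, among them the length correction (0.72, edgeR adjusted p = 0.0288), and its adjusted p reached 0.172 without PBS replicate 3, where the log2 fold change was 0.33. The log2 ratio of RIGI to IFIH1 was -1.14, -0.95 and -1.17 under cisplatin and -1.77, -1.68 and -2.79 under PBS, a difference of 0.99 (exact permutation test, two-sided, p = 0.1, the smallest possible; adjusted p = 0.1 over the 3 ratios). As with the other ratios, it was chosen after the values were seen, and its p-value lends no support.

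Among the transcription factors, IRF1, which both starts and responds to interferon signalling, had 27.6, 27.8 and 29.1 CPM under cisplatin and 19.1, 17.2 and 18.4 CPM under PBS. The libraries within each group lay close together, and IRF1 rose by 0.63 ± 0.09 (edgeR adjusted p = 3.6e-04). STAT2 had 68.1, 54.9 and 51.6 CPM under cisplatin and 43.8, 41.0 and 43.7 CPM under PBS. Its cisplatin values were higher and more spread, with cisplatin replicate 1 the highest, and it rose by 0.44 ± 0.10 (edgeR adjusted p = 0.00592). In TPM the STAT2 groups overlapped, and limma on log2(TPM + 1) gave 0.21 with an adjusted p of 0.401.

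IRF7, the factor that drives the main burst of type I interferon genes, had 4.19, 3.12 and 3.67 CPM under cisplatin and 2.79, 1.78 and 2.30 CPM under PBS. It rose by 0.70 ± 0.23 (edgeR adjusted p = 0.0296). This call did not hold without cisplatin replicate 1 (adjusted p = 0.105), cisplatin replicate 3 (0.0763), PBS replicate 2 (0.101) or PBS replicate 3 (0.0619), after the length correction (0.0891) and with DESeq2 (0.0970). In TPM the IRF7 groups overlapped, and limma on log2(TPM + 1) gave an adjusted p of 0.223. IRF9, the DNA-binding part of the STAT complex, had 9.87, 8.11 and 9.97 CPM under cisplatin and 10.4, 5.46 and 6.21 CPM under PBS. PBS replicate 1 was the highest of the 6, the groups overlapped, and IRF9 was not called (0.39 ± 0.21, edgeR adjusted p = 0.160); without that library it passed (0.68, edgeR adjusted p = 0.0113). IRF9 shares 48.4% of its exonic bases with an unnamed protein-coding gene on the same strand and IRF1 22.0% with IRF1-AS1 on the opposite strand, so their counts are less certain.

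The cisplatin libraries lay wholly above the PBS libraries for 15 of the 22 tested genes and wholly below for 3, against 25.2% and 24.5% of all tested genes. The median log2 fold change was 0.67 for the 22 genes and -0.000347 for all tested genes, values that include IFIT2 and IFI44, which passed the count minimum through one group. A log2 fold change above 1 together with a call was found for OAS1, IFIT1, IFIT2, IFIT3, IFI6 and IFI44, and for 3.47% of all tested genes.

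Transcript length moved with the fold change over the whole table, with a slope of -0.152 on the log2 scale per doubling of length and a correlation of -0.267 across 15063 genes, which share their 6 libraries. The 22 genes had a median length of 2362 bases, against 2360 bases for all tested genes, and a correlation of -0.265 across the 22. With the length trend taken out of each library, 15 of the 22 were higher and 1 lower, against 17.1% and 16.9% of all tested genes. Of the 15 genes that rose, 13 were still called; ISG15 and IRF7 were not, while OAS3 and RIGI were added. Under the other rules the listed genes gave 18 higher and 1 lower of 29 with no count minimum (10.4% of all genes in either direction), and 11 and 1 of 15 with at least 50 counts in 3 samples (20.8% and 21.2%). The replicate block gave 16 and 2 of 22 (18.9% and 19.7%), DESeq2 14 and 1 (15.4% and 16.1%), and limma on log2(TPM + 1) 9 and 0 (8.02% and 11%).

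**Figure D3:**
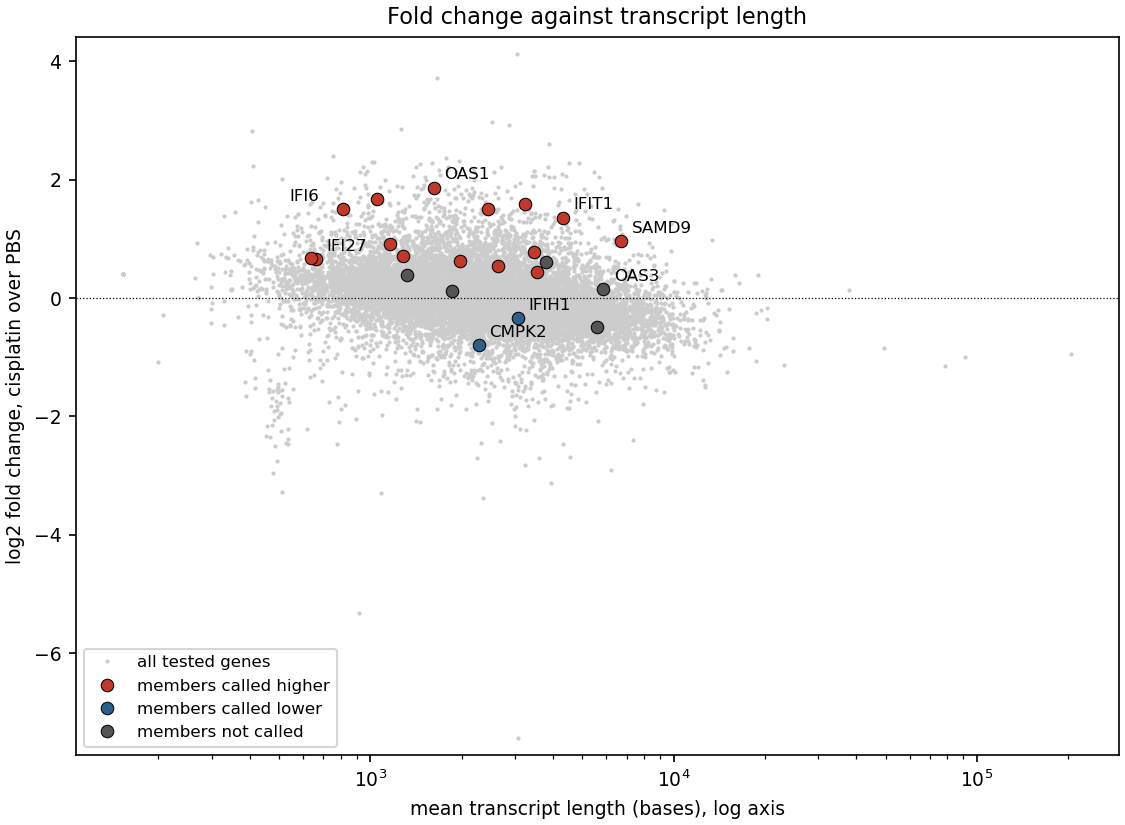
Log2 fold change, cisplatin over PBS, against the mean deposited transcript length on a log axis, for all tested genes (grey) and for the interferon-stimulated genes called higher (red), called lower (blue) or not called (dark grey). Genes that rose are found from ISG15 at 637 bases to SAMD9 at 6717 bases.

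The deposited tables also give, for each gene and library, a mean transcript length weighted by the estimated isoform mix, which the fold changes do not use. It did not overlap between the groups for 3 of the 22 genes, against 15.8% of all tested genes, so the share is near the background. PARP9 had means of 2947, 3041 and 3200 bases under cisplatin and 3907, 4243 and 3503 bases under PBS. IFI27 had 636, 650 and 631 bases under cisplatin and 682, 678 and 684 bases under PBS. In both, the mix was shorter in every cisplatin library. IFI44 had 1311, 1128 and 1070 bases under cisplatin and 824, 1017 and 945 bases under PBS, where it rests on 7 to 13 counts a library.

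**Figure D4:**
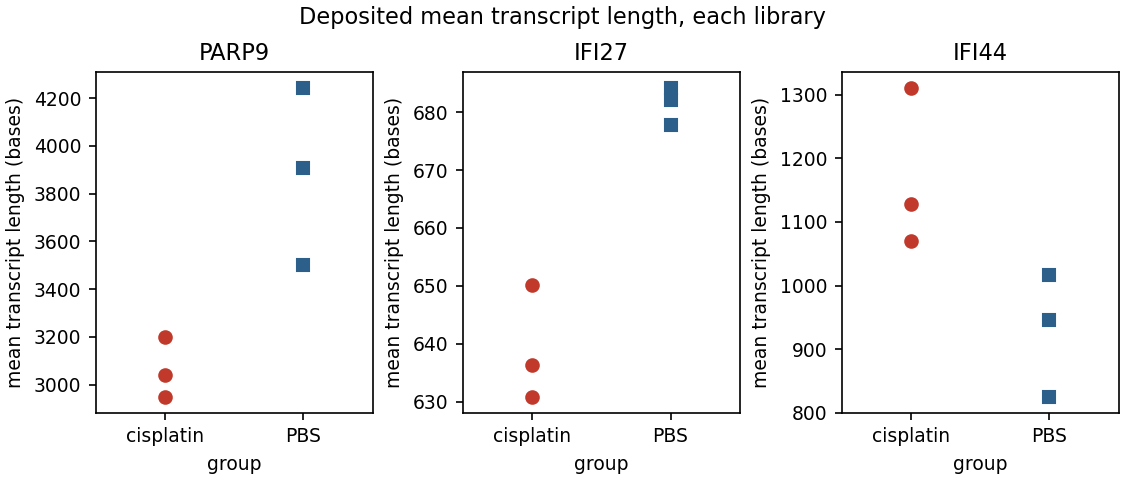
Deposited mean transcript length in bases of PARP9, IFI27 and IFI44 in the 3 cisplatin and the 3 PBS libraries; each point is a library, and the axes do not start at 0. PARP9 and IFI27 lie lower in every cisplatin library, and IFI44 higher.

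The interferons themselves were almost absent. Of 22 interferon genes, 16 had 0 counts in all 6 libraries and 20 had at most 3 in any; the highest count of any of them was 7. IFNB1 had 1, 0 and 0 counts under cisplatin and 0 in the 3 PBS libraries, and IFNL3 likewise had a single count. None cleared the count minimum, and with no minimum edgeR tested 6 of them and called 0. A difference in interferon mRNA was not detectable at this depth.

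Of 11 receptor and kinase genes, all tested, 4 rose (36.4%, against 18.9% of all tested genes) and 7 were not called. IFNLR1, the receptor chain specific to type III interferon, averaged 3.93 ± 0.150 CPM under cisplatin and 1.98 ± 0.427 CPM under PBS (SD, n = 3 each; log2 fold change 1.02 ± 0.22, edgeR adjusted p = 0.00351). Its partner chain IL10RB rose by 0.52 ± 0.09 (edgeR adjusted p = 0.00122), the interferon gamma receptor chain IFNGR2 by 0.41 ± 0.08 (adjusted p = 0.00162) and STAT3 by 0.31 ± 0.08 (adjusted p = 0.0134). STAT3 was not called without cisplatin replicate 1, and on log2(TPM + 1) limma called 1 of the 11 genes, since IL10RB, IFNGR2 and STAT3 did not pass there. The type I receptor gene IFNAR1 averaged 81.2 ± 1.39 CPM under cisplatin and 79.8 ± 8.53 CPM under PBS, less apart than the PBS libraries were from each other (edgeR adjusted p = 0.855).

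Of 17 genes that sense nucleic acids or relay that signal, 11 were tested, 6 rose (54.5%, against 18.9% of all tested genes) and 5 were not called. Without cisplatin replicate 1 the count was 3 of 12 tested, with IRF5 and DHX58 the only ones of the 6 still called, and on log2(TPM + 1) it was 1 of 11. IRF5 rose by 0.76 ± 0.13 (edgeR adjusted p = 7.4e-04), DHX58 (LGP2, which tunes RIG-I and MDA5) by 1.04 ± 0.23 (adjusted p = 0.00423), the adaptor MAVS by 0.26 ± 0.07 (adjusted p = 0.0127) and the DNA exonuclease TREX1 by 0.57 ± 0.16 (adjusted p = 0.0152). TREX1 was also not called without PBS replicate 3 or after the length correction. The other 2 genes of the 6, the adaptors TICAM1 (0.30 ± 0.10, edgeR adjusted p = 0.0426) and MYD88 (0.29 ± 0.11, adjusted p = 0.0479), lay just past the threshold and lost their calls under many of the alternatives. The cytosolic DNA sensor CGAS had 1, 2 and 3 counts under cisplatin and 2, 5 and 1 under PBS, and its adaptor STING1 8, 8 and 15 against 3, 2 and 3 counts, so neither was tested. Of 15 genes listed as brakes on the pathway, 13 were tested, with 1 higher (7.69%) and 2 lower (15.4%), against 18.9% and 19.3% of all tested genes. The phosphatase PTPN6 (SHP-1) rose by 0.74 ± 0.10 (edgeR adjusted p = 1.7e-04), whereas PTPN11 (SHP-2) fell by 0.65 (adjusted p = 7.6e-05) and the corepressor IRF2BP2 fell by 0.31 (adjusted p = 0.00573), a call that limma on log2(TPM + 1) did not make.

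A wider list of 67 further interferon-stimulated genes, 66 of them matched by symbol, gave 52 tested, of which 25 rose and 5 fell (48.1% and 9.62%, against 18.9% and 19.3% of all tested genes). Their median log2 fold change was 0.41, against -0.000347 for all tested genes. On log2(TPM + 1) limma called 13 higher and 3 lower. RTP4 and IFI16, both among the 25, cleared the count minimum only through the cisplatin libraries. The shares of this list are therefore not independent of that minimum. The most significant increases were in SLFN5, at 211 ± 23.2 CPM under cisplatin and 88.8 ± 14.2 CPM under PBS (SD, n = 3 each; edgeR adjusted p = 1.6e-05), and in the secreted glycoprotein LGALS3BP, which rose by 0.64 (adjusted p = 6.3e-05). UBE2L6, the conjugating enzyme of ISG15, rose by 0.83 (edgeR adjusted p = 7.6e-05) and the death ligand TNFSF10 (TRAIL) by 1.06 (adjusted p = 1.1e-04). RNF213 fell by 0.52 (edgeR adjusted p = 2.5e-04), the mitochondrial RNA nuclease PNPT1 fell by 0.51 (adjusted p = 4.5e-04), the RNA-activated kinase EIF2AK2 (PKR) fell by 0.41 (adjusted p = 0.00260) and TMEM140 fell by 0.61 (adjusted p = 0.00564). With the length correction EIF2AK2 missed the threshold (edgeR adjusted p = 0.0853), and RNF213 missed it on log2(TPM + 1).

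**Figure D5:**
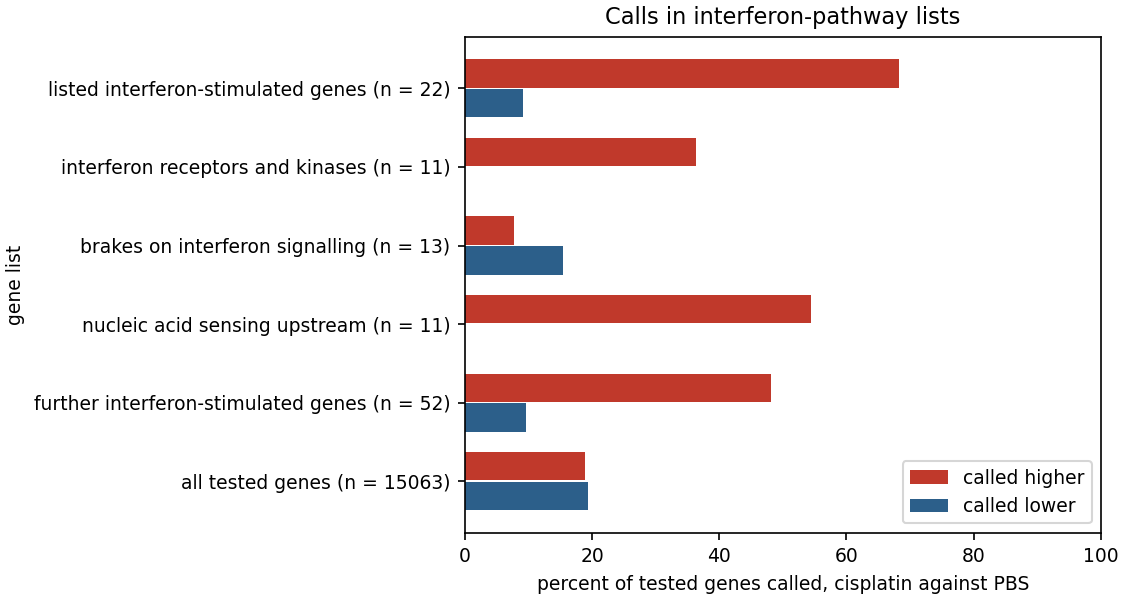
Percent of tested genes called higher (red) or lower (blue) under cisplatin by edgeR, for the listed interferon-stimulated genes, 4 further lists of the pathway and all tested genes, with the number tested. Higher calls outnumber lower ones in each list but the brakes, and are about even over all genes.

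Libraries held 9925328 to 16724285 expected counts under cisplatin and 9121180 to 15589897 under PBS, and the first principal component, with 58.9% of the variance, separated the groups. Of 10 squamous markers 5 were tested: SOX2 was abundant, KRT5, KRT6A and DSC3 were detected at lower levels, and SERPINB5 rose (1.33 ± 0.30, edgeR adjusted p = 0.00498). SERPINB5 cleared the count minimum only through the cisplatin libraries, so its call is not independent of that minimum. On log2(TPM + 1) limma did not call SERPINB5 (adjusted p = 0.095). TP63 and PKP1 had at most 3 counts in any library, KRT14 at most 5, and KRT17 and DSG3 had 0. Of 7 tested epithelial markers 5 rose (71.4%, against 68.2% of the interferon-stimulated genes and 18.9% of all tested genes), and that list summed to 2890 to 3060 CPM under cisplatin and 2370 to 2550 CPM under PBS. After the length correction 4 of the 7 were higher and 1, EPCAM, was lower (17.1% and 16.9% of all tested genes). On log2(TPM + 1) limma called 3 of the 7 higher (8.02% of all tested genes). Of 13 leukocyte markers, 5, including PTPRC, CD3E and MS4A1, were at 0 in all libraries and 10 had at most 3 counts. The list summed to 4.10 to 4.78 CPM under cisplatin and 2.23 to 2.76 CPM under PBS, mostly from LYZ. Only 2 were tested: LYZ rose (1.84 ± 0.26, edgeR adjusted p = 2.6e-04) and CD14 fell (-0.98 ± 0.36, adjusted p = 0.0467). LYZ cleared the count minimum only through the cisplatin libraries and CD14 only through the PBS libraries. Neither call is therefore independent of that minimum. The CD14 call was lost under many of the alternatives. Of 10 fibroblast markers, COL3A1 was at 0 and 4 had at most 3 counts. The list summed to 26.1 to 29.4 CPM under cisplatin and 12.9 to 17.4 CPM under PBS, mostly from COL1A1. Of the 3 tested, COL1A1 and THY1 rose (66.7%, against 18.9% of all tested genes), and limma on log2(TPM + 1) called 0 of the 3. THY1 and the uncalled POSTN cleared the count minimum only through the cisplatin libraries, so that share is not independent of it. The THY1 call was also lost without cisplatin replicate 1 or PBS replicate 3. The part of these marker lists in the results was not tested. The 8 endothelial markers summed to 1.49 to 2.67 CPM under cisplatin and 1.79 to 2.65 CPM under PBS, with TEK, EMCN and ERG at 0.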

How the data were processed

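Total RNA (1.5 µg) was made into libraries with an ABclonal kit, per the labels' protocols. The authors deposited, per gene and library, expected counts, TPM values and mean transcript lengths under the column names that RSEM writes, per the file headers; STAR 2.7.9 and GRCh38 are named in the submitters' processing notes. Quantifier version, annotation and use of strand are, in the sources used here, not given, so reads of overlapping antisense genes cannot be told apart. Symbols matched 61399 of 61552 genes, and positions came from GENCODE 29. Expected counts were rounded and tested with edgeR 4.0.16 (R 4.3.3): genes kept by filterByExpr (minimum count 10, minimum total 15), TMM scaling, quasi-likelihood test on the group alone, Benjamini-Hochberg adjustment over 15063 genes, calls at 0.05. Standard errors were obtained as log2 fold change over root F. The fit and the length correction (lowess, span 0.3, entered as offsets) were also run on simulated data. Far fewer genes were changed there than were called here, so that run does not show how the fit performs on these data. Alternatives were DESeq2 1.42.0, limma 3.58.1 with voom or on log2(TPM + 1), other scalings and count minimums, a replicate block, the length correction and leaving out each library. No 2 libraries held identical counts. The genes and lists were chosen with earlier results of these data known. All 33 are named, and from each further list up to 4 called genes per direction with the smallest adjusted p. IFNB1, IFNL3, IFNAR1, CGAS, STING1, TICAM1, MYD88, DTX3L, RSAD2, RTP4, IFI16 and single marker genes were added after their values were seen.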

Additional observations from a re-analysis of the deposited data

How the results depend on the processing

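Of the 17 called interferon-stimulated genes, 9 kept their call under every one of the 16 alternatives that could test them, and 4 more (STAT2, IRF1, MX1 and SAMD9) lost it only on log2(TPM + 1); no gene changed direction. IFIH1, IRF7, ISG15 and CMPK2 lost theirs under several. On log2(TPM + 1) limma called 1208 genes higher and 1653 lower in all, against 2851 and 2901 by edgeR on counts, and of the listed genes 9 higher and 0 lower (2 lower at an unadjusted p under 0.05); the cause was not tested. The count of listed genes called lower was 2 in the main test, 1 with no count minimum, with at least 50 counts in 3 samples (15 listed genes tested), after the length correction and with DESeq2, and 0 to 2 when single libraries were left out. Leaving out a library gave 13 to 16 listed genes higher. The replicate block gave 16 higher and 2 lower; same-numbered libraries deviated together with correlations of 0.0658, 0.123 and -0.0760, so the numbers were not taken as pairs. Between scalings of the counts the median log2 fold change of all genes lay between -0.000347 and 0.0206, and on log2(TPM + 1) it was -0.0711. Of the 11 genes with at most 16 counts a library no difference could be tested with the count minimum, and 4 of them had no counts.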

Other observations

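IFITM2 was listed at 25.9 TPM in PBS replicate 3 from 5 expected counts, with a deposited mean transcript length of 251 bases in that library. The cisplatin libraries had 1.72 to 2.82 TPM from 6 to 16 counts, so the groups order differently in TPM and in counts.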
